A study of Mus musculus with 16 samples.

Results

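The effect of an internal tandem duplication of Flt3 (FLT3 ITD) on osteoclast expression was measured as 8 libraries that carried it against 8 that did not, with Ptprc status as an additive term. All 16 libraries of the series entered, and 39 of 12093 tested genes were called (adjusted p under 0.05), out of 21936 genes in the count table. The groups, with 4 libraries each, were FLT3 ITD (a knock-in of the duplication), FLT3 ITD Ptprc KO (the knock-in with a knockout of Ptprc, here the double mutant), WT, and Ptprc KO. All came from C57BL/6J mice, whose age, and whether the knock-in was heterozygous or homozygous, are not given in the sources used here. Cells positive for CD11b were taken from bone marrow, grown in M-CSF (50 ng/ml) for 3 days and then also in RANKL (20 ng/ml), and RNA was isolated on day 3 to 5, once mature osteoclasts were first seen. The labels also mention AC220, a FLT3 inhibitor, but give it for no sample, and the sample total given with the design exceeds the sum of its groups, which is 16. Neither the exact day nor the animal behind each library is stated, so p-values measure only how far these libraries spread, which may be technical.

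Osteoclasts are the multinucleated cells that resorb bone. They form by fusion of myeloid precursors of the macrophage lineage under M-CSF and RANKL. FLT3 is a receptor tyrosine kinase of blood progenitors, and its internal tandem duplication, frequent in acute myeloid leukaemia, signals without ligand through STAT5 and the RAS and ERK pathway. CD45, the product of Ptprc, is a transmembrane phosphatase found on leukocytes. The same precursors can also become macrophages, and tissue-resident macrophages are recognised by scavenger, complement and phosphatidylserine receptors.

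Total counts per library ran from 24211724 to 35773313. Levels are given as counts scaled to the library total (CPM) with library totals corrected by TMM factors, which allow for a few genes taking a large share of the counts. Ptprc stood at 54.1 to 86.7 CPM in double mutant and 30.8 to 45.8 CPM in Ptprc KO libraries, and at 230 to 543 CPM in FLT3 ITD and 412 to 472 CPM in WT libraries, so each library matched its Ptprc label. Flt3 itself, which the table does not split by allele, was near the detection limit and cannot check the knock-in label (additive log2 fold change -1.10, adjusted p = 0.694, from edgeR's quasi-likelihood test, adjusted by Benjamini-Hochberg over all genes, as for every adjusted p that follows). Cathepsin K (Ctsk), the protease that defines resorbing osteoclasts, was present in every library, at 1169 to 18506 CPM, but at 1169, 1399 and 1904 CPM in double mutant replicates 4, 2 and 1 and 8508 CPM in replicate 3, and at 4203 CPM in FLT3 ITD replicate 4, the other FLT3 ITD libraries having 11778 to 18506 CPM. FLT3 ITD replicates 1 and 3 were the closest pair, with a mean chi-square per gene of 2.77, while Ptprc KO replicates 2 and 3, the next in order, had 13.04, and FLT3 ITD replicate 2 deviated from the median library with gene length (Spearman rho -0.506 across genes).

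A small set of genes moved the same way with FLT3 ITD in both Ptprc backgrounds, and several of the lower ones were markers of tissue-resident macrophages. Of the 39 called genes (0.323% of the genes tested), 25 were lower (0.207%) and 14 higher (0.116%) in the libraries with FLT3 ITD. All 39 also had the same sign and an unadjusted p under 0.05 in each background, FLT3 ITD against WT and the double mutant against Ptprc KO. The additive test on these same libraries favours such genes. Neither this nor the separation of ranges that follows is therefore independent support for the calls. The ranges of the 8 libraries with and the 8 without FLT3 ITD did not overlap for 25 of the 39, against 27 of all 12093 genes (0.223%). This held for 17 of the lower and 8 of the higher genes, against 0.157% and 0.0662% of all genes in those directions. An unadjusted p under 0.05 was reached by 853 genes (7.05%). Only 7 of the 39 passed the adjusted threshold within a background taken alone, and 32 were called by neither. Those comparisons of 4 against 4 called 5 genes (0.0413%) for FLT3 ITD against WT and 11 (0.091%) for the double mutant against Ptprc KO.

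The size of the set depended on single libraries. The number called was 14 without double mutant replicate 4, 17 without Ptprc KO replicate 4, 18 without Ptprc KO replicate 2, and 21 without WT replicate 3, WT replicate 4 or Ptprc KO replicate 3. It was 23 without FLT3 ITD replicate 3, and 25 without FLT3 ITD replicate 2 or double mutant replicate 1. With FLT3 ITD replicates 1 and 3 summed to 1 library, 23 genes were called, of which 22 were among the 39. Low levels were common in the set: 23 of the 39 genes had a mean under 50 counts and 16 had a mean of at least 50. With genes under 50 left out of the test, 5 of those 16 were called and no other gene, so calls were also lost among genes with more counts. DESeq2 called 148 genes, the 39 among them. The 14 genes called whichever library was left out were Vsig4, Cd5l, Timd4, Hpgd, Slco2b1, Slc1a3, Mrap, Pcolce2, Paqr9, Dysf and Gdf3, all lower, and Cdh13, Clec2f and C1qtnf6, all higher.

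**Figure D1:**
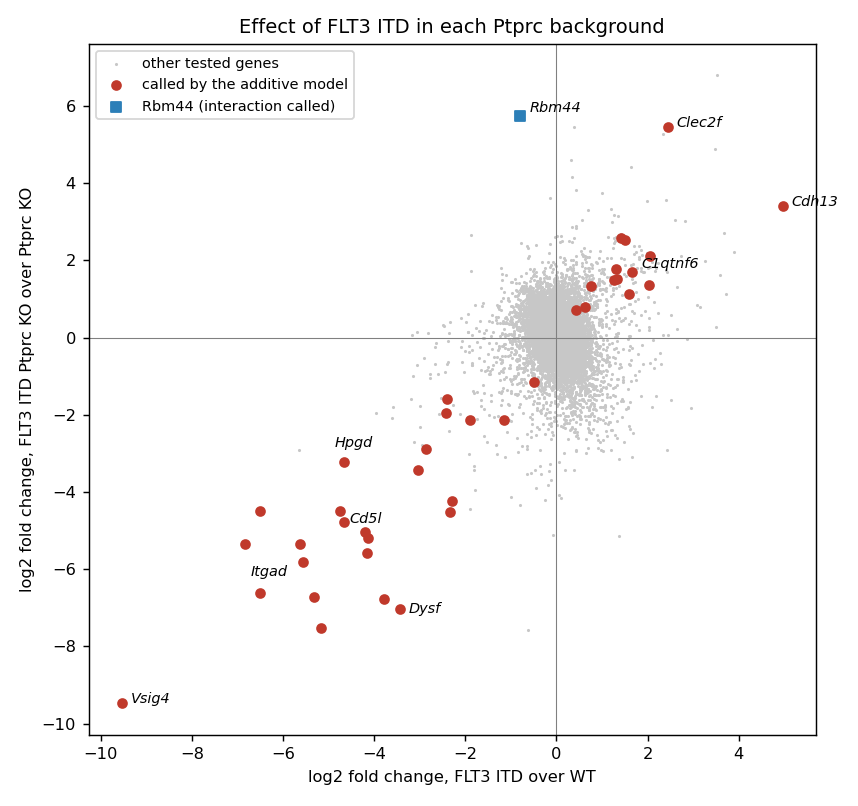
Log2 fold change of each tested gene in FLT3 ITD against WT (horizontal axis) and in the double mutant against Ptprc KO (vertical axis), with the 39 called genes in red and Rbm44, the 1 gene called by the interaction, in blue. All 39 called genes lie in the quadrants of equal sign, which the additive test favours, as do 42.2% of all genes.

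Vsig4, the complement receptor of resident macrophages (ENSMUSG00000044206; GRCm38 chromosome X, 96247203 to 96293438, minus strand), had 0 counts over all 8 libraries with FLT3 ITD and 691 counts over the 8 without it. Its level was 0 CPM in each FLT3 ITD and each double mutant library, against 1.97, 0.849, 4.5 and 5.33 CPM in WT and 1.44, 3.85, 3.29 and 3.5 CPM in Ptprc KO libraries. Taken against 3 counts over the 8 libraries, Vsig4 was at least 232-fold lower with FLT3 ITD (adjusted p = 0.00284). Cd5l, a secreted scavenger protein of macrophages (ENSMUSG00000015854; chromosome 3, 87357881 to 87371073, plus strand), also fell. It had 2.60, 2.30, 2.19 and 10.5 CPM in FLT3 ITD libraries, against 65.2, 35.2, 222 and 147 CPM in WT libraries. In double mutant libraries it had 18.3, 4.98, 1.63 and 2.16 CPM, against 40.5, 184, 95.7 and 295 CPM in Ptprc KO libraries. Every library with FLT3 ITD was below every library without it (log2 fold change -4.62, SE 0.66, adjusted p = 0.00501).

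The promoters of both genes are shown because the results open with them. Pcolce2 and Slc1a3, described with the other lower genes, are shown because each holds the same match to the STAT motif TTCNNNGAA, the letters recognised by the STAT factors that act downstream of FLT3. Each sequence runs from 250 bases before to 50 after the gene start, 5′ to 3′ on the gene's strand (RefSeq, GRCm38.p6), with any STAT match in capitals. The positions are chrX:96293389-96293688 (minus strand) for Vsig4, chr3:87357631-87357930 (plus) for Cd5l, chr9:95637378-95637677 (plus) for Pcolce2 and chr15:8710758-8711057 (minus) for Slc1a3.
Vsig4: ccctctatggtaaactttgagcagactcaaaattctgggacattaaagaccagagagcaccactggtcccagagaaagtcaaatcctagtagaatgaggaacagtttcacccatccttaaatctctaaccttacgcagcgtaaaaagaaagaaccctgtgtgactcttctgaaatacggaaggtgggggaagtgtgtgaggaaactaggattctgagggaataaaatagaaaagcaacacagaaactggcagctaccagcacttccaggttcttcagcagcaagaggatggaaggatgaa
Cd5l: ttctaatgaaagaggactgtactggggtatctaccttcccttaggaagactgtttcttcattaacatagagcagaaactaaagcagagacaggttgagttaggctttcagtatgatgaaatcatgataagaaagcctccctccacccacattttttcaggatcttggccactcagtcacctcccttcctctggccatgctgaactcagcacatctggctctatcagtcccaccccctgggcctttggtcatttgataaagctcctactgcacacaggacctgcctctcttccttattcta
Pcolce2: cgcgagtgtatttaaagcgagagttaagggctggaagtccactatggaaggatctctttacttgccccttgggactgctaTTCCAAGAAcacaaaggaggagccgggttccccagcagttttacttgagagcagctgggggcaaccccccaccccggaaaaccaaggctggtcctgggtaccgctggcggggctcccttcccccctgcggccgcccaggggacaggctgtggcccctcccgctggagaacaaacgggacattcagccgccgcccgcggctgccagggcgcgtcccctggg
Slc1a3: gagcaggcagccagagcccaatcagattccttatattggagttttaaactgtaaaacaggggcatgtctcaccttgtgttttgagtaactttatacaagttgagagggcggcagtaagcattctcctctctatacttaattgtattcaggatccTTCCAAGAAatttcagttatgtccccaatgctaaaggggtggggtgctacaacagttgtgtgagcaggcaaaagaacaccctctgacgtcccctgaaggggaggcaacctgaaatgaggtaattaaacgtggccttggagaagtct
The match begins 170 bases before the start in Pcolce2 and 96 bases before it in Slc1a3, and neither Vsig4 nor Cd5l holds one in this window. A promoter was found in the table for 20 of the 25 lower and 10 of the 14 higher genes. The STAT motif, searched on both strands, was in 5 of the 20 lower genes (25%; also Slco2b1, Peg12 and Tgm1) and 0 of the 10 higher genes, against 8.23% of 9691 tested genes with a promoter. A gene counted if any of its promoters matched, so genes with several had more chances, and Slco2b1 had 3 and Tgm1 2. The ETS-type motif GAGGAAG, on both strands, was in 2 of the lower (10%) and 1 of the higher genes (10%), against 16.3% of all. These matches are descriptions of letters, with no test.

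Other receptors and enzymes of resident macrophages fell with Vsig4 and Cd5l. Timd4, a phosphatidylserine receptor used in the uptake of dying cells, had 0.125, 0.0433, 0.0313 and 0.0416 CPM in FLT3 ITD libraries, against 0.311, 0.371, 1.75 and 2.24 CPM in WT libraries. It had 0, 0.138, 0 and 0 CPM in double mutant libraries, against 0.331, 2.54, 0.793 and 1.71 CPM in Ptprc KO libraries. The groups did not overlap (log2 fold change -4.62, SE 0.74, adjusted p = 0.0137). Hpgd, which breaks down prostaglandins, was at 0.0326 to 1.21 CPM with FLT3 ITD (median 0.261), against 1.96 to 15.1 CPM without it (median 4.65; log2 fold change -3.93, SE 0.65, adjusted p = 0.0173). Vcam1, an adhesion molecule, was at 0.293 to 10.9 CPM (median 1.12) with FLT3 ITD, against 12.3 to 214 CPM (median 55.0) without it. Its groups did not overlap either (log2 fold change -4.72, SE 0.90, adjusted p = 0.0367). Cd163, the haemoglobin scavenger receptor, and Ear2, a ribonuclease gene with close paralogs, fell by 3.26 (SE 0.65) and 4.83 (SE 0.94) on the log2 scale, with overlapping ranges. Itgad, an integrin alpha chain of splenic macrophages, fell by 6.56 on the log2 scale (SE 1.11, adjusted p = 0.0187), and overlaps Cox6a2 on the other strand, which had 383 counts in all.

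**Figure D2:**
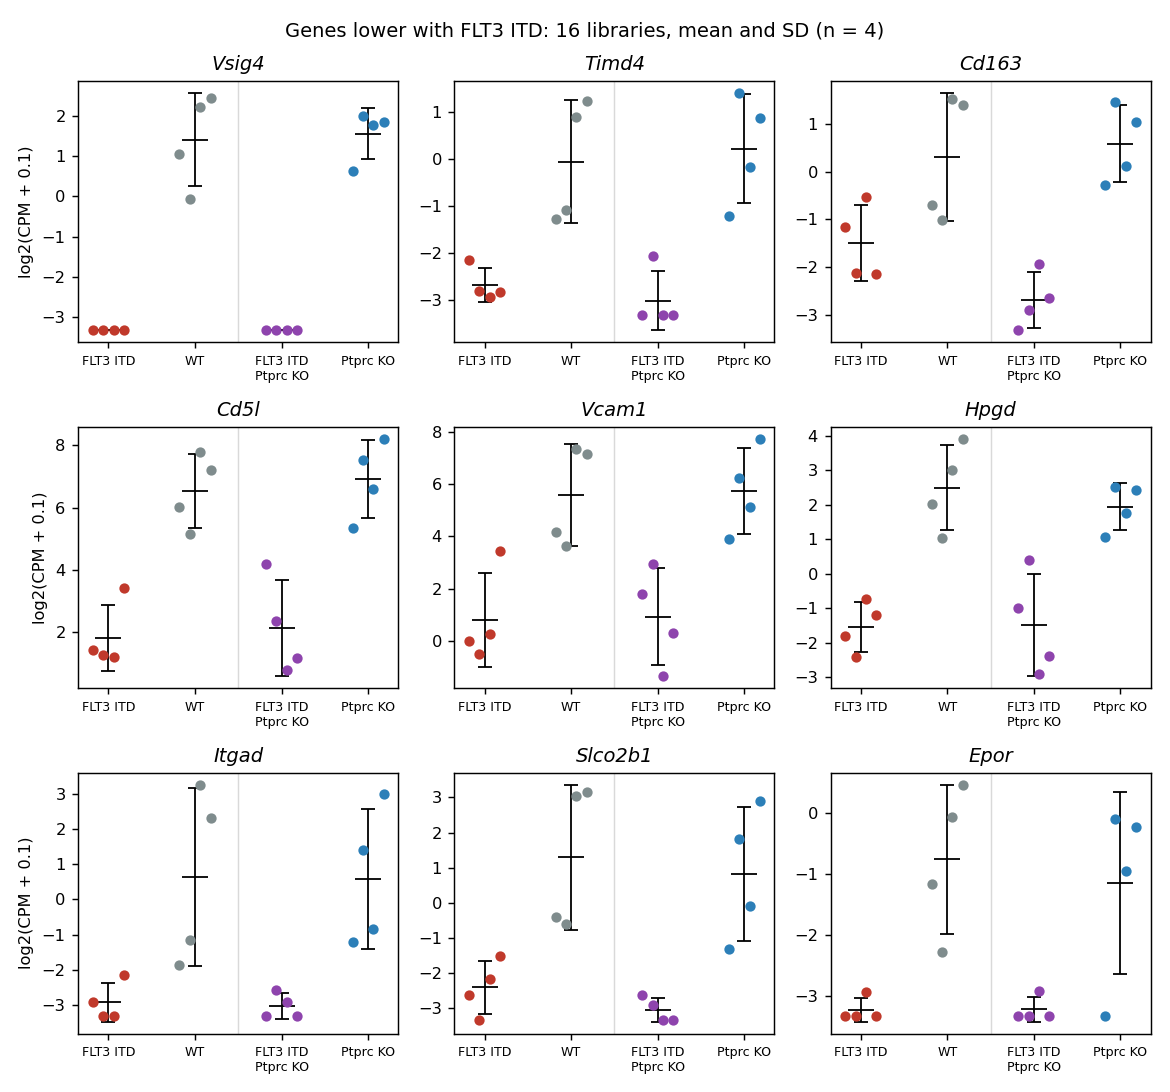
Level of 9 genes lower with FLT3 ITD, as log2(CPM + 0.1) per library (points), in FLT3 ITD, WT, double mutant and Ptprc KO libraries, with the mean and SD of each group (n = 4) in black. Cd5l is at 1.63 to 18.3 CPM in the libraries with FLT3 ITD and at 35.2 to 295 CPM in those without.

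Not all resident macrophage genes fell. Of a list of 26, drawn up with earlier results of these data known, 24 were tested (not Clec4f and Cd209f). Of these, 7 fell (Vsig4, Timd4, Cd163, Cd5l, Vcam1, Hpgd and Ear2, where 0.207% of all genes were called lower) and none was called higher (0.116% of all genes). With 1 library left out at a time, Cd163 was called in 3, Ear2 in 4 and Vcam1 in 5 of 16 fits. At an unadjusted p under 0.05, 10 members were lower and 1 higher, against 340 and 513 of all 12093 genes. A positive fold change was seen for 7 of the 24, against 6770 of all 12093 genes. The median log2 fold change of the list was -0.65, against 0.04 over all genes. Marco, a scavenger receptor, had the highest fold change of the list, at 30.8 ± 31.3 CPM with FLT3 ITD and 10.5 ± 4.4 CPM without it (SD, n = 8 each; log2 fold change 1.55, SE 0.52, adjusted p = 0.515). The members that did not pass were not only genes expressed broadly in macrophages. Siglec1 averaged 41.66 ± 40.55 CPM with FLT3 ITD and 41.62 ± 36.01 CPM without it (SD, n = 8 each, as for the next 3). Folr2 averaged 35.02 ± 25.87 and 27.98 ± 28.12 CPM, and Selenop 323 ± 474 and 316 ± 380 CPM. Lyve1 averaged 0.285 ± 0.347 and 0.323 ± 0.187 CPM. Adgre1, which encodes F4/80, had a log2 fold change of 0.15 (SE 0.64), C1qa, a complement component, 0.07 (SE 0.82), and Mrc1, the mannose receptor, -0.18 (SE 0.66). Spic, a transcription factor of iron-recycling macrophages, averaged 9.53 ± 3.9 CPM with FLT3 ITD and 20.6 ± 8.3 CPM without it (SD, n = 8 each; log2 fold change -1.11, adjusted p = 0.155). The summed level of the list overlapped between groups, at 356 to 5204 CPM in FLT3 ITD and 731 to 5007 CPM in WT libraries, and 852 to 6072 CPM in double mutant and 728 to 5702 CPM in Ptprc KO libraries. In bulk RNA, fewer cells of a type and less RNA per cell cannot be told apart. Of the lists for other cell types, those of eosinophils and of erythroid cells held 1 called gene each, Ear2 and Epor, and Epx, Klf1 and the globin genes did not pass the filter on low counts. None of the 12 neutrophil genes tested was called, but their median was -1.57 and 10 were negative. At an unadjusted p under 0.05, 3 were lower (340 of all 12093 genes). Their medians were -3.00 in the double mutant against Ptprc KO and -0.07 in FLT3 ITD against WT, and 6 of the 12 had the same sign in both. Their summed level overlapped, at 39.6 to 316 CPM in FLT3 ITD and 12.7 to 188 CPM in WT libraries, and at 19.8 to 224 CPM in double mutant and 17.8 to 284 CPM in Ptprc KO libraries. Of 5 endothelial genes tested, 2 were lower at that threshold (340 of all 12093 genes) and none was called. The part of these markers in the result was not tested.

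Among the libraries without FLT3 ITD, the lower genes varied together. Of the 25, 23 were in the upper 4 of these 8 libraries in WT replicate 4 and 23 in Ptprc KO replicate 2, 22 in Ptprc KO replicate 4 and 20 in WT replicate 3. In WT replicates 1 and 2 and Ptprc KO replicates 1 and 3 the numbers were 3, 3, 1 and 5. Both genotypes thus held libraries with high and with low levels. Leaving out 1 of the 4 libraries with high levels left 17 to 21 calls. Of those with low levels, leaving out WT replicate 1 left 31, WT replicate 2 left 33, Ptprc KO replicate 1 left 31 and Ptprc KO replicate 3 left 21. The fewest, 14, were left without double mutant replicate 4. How other genes ranked across these libraries was not tested.

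The remaining lower genes had varied functions. Paqr9, of the progestin and adipoQ receptor family, had the lowest p of all genes and was at 0.0300 to 0.167 CPM with FLT3 ITD, against 0.690 to 4.16 CPM without it (log2 fold change -4.83, SE 0.50, adjusted p = 0.000812). Gdf3, a ligand of the TGF-beta family, averaged 0.535 ± 0.43 CPM with FLT3 ITD and 13.2 ± 10.1 CPM without it (SD, n = 8 each; log2 fold change -4.61, SE 0.60, adjusted p = 0.00284). Dysf, the membrane repair protein dysferlin, fell by 4.78 (SE 0.73) and Slco2b1, an organic anion transporter, by 5.85 (SE 0.94) on the log2 scale. Slc1a3, a glutamate transporter, fell by 5.67 (SE 0.83). Mrap, Pcolce2 and Epor had 2 counts each over the 8 libraries with FLT3 ITD and are given as count ratios with exact 95% binomial intervals, which cover counting error only. Mrap, the melanocortin receptor accessory protein, was 86.8-fold lower (23.7 to 723), Pcolce2, an enhancer of procollagen processing, 72.7-fold lower (19.8 to 606), and Epor, the erythropoietin receptor, 63.6-fold lower (17.2 to 531). Vstm4, with 1 count, was 73.7-fold lower (12.8 to 2950). The smallest fall was that of Lipo3, a lipase family gene, at 18.8 ± 5.7 CPM with FLT3 ITD and 32.3 ± 3.5 CPM without it (SD, n = 8 each; log2 fold change -0.82, SE 0.16, adjusted p = 0.0367). Cd38, Kcna2, Ccdc148, Tgm1, Peg12, Lrig3 and Clec1b made up the rest, with log2 fold changes of -3.23 to -1.64. Clec1b overlaps Clec9a on the same strand (85 counts in all) and Lipo3 overlaps Lipo2 (5 counts), so reads could be shared.

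Cdh13, which encodes the cadherin without a cytoplasmic tail (ENSMUSG00000031841; chromosome 8, 118283733 to 119324921, plus strand), rose most. It had 3.01, 2.34, 2.91 and 1.54 CPM in FLT3 ITD libraries, against 0.0346, 0.0265, 0.0687 and 0.178 CPM in WT libraries. In double mutant libraries it had 0.460, 0.484, 0.586 and 0.210 CPM, against 0, 0.0876, 0.0378 and 0.0357 CPM in Ptprc KO libraries. The groups did not overlap in either background (log2 fold change 4.39, SE 0.48, adjusted p = 0.00085). Clec2f, of a family of C-type lectin-like ligands, was at 0.520 to 2.39 CPM with FLT3 ITD and 0 to 0.320 CPM without it (log2 fold change 3.72, SE 0.62, adjusted p = 0.0173). C1qtnf6, a secreted protein related to complement C1q, averaged 12.1 ± 4.2 CPM with FLT3 ITD and 3.77 ± 1.0 CPM without it (SD, n = 8 each), again without overlap (log2 fold change 1.69, SE 0.22, adjusted p = 0.00284).

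Signalling genes were among the smaller rises. Il7, a cytokine for lymphocyte precursors, averaged 1.85 ± 0.43 CPM with FLT3 ITD and 0.738 ± 0.27 CPM without it (SD, n = 8 each; log2 fold change 1.35, SE 0.23, adjusted p = 0.0187). Grap2, an adaptor of receptor signalling, rose by 2.01 (SE 0.37) and Rras2, a small GTPase of the RAS family, by 1.05 (SE 0.20) on the log2 scale. Chsy3, a chondroitin sulfate synthase, rose by 2.08 (SE 0.36). Sox12, Zfp979, Xlr4c, Ube2e2 and Scly rose by 0.57 to 1.70, and Xlr4c, which has close copies, is uncertain for that reason. H2-Q6 and H2-Q7, non-classical class I MHC genes, rose by 2.03 and 1.55, but they are near-identical copies that counting may split, so their values are uncertain. H2-Q7 was high in 3 of the 4 double mutant libraries, at 45.3, 8.58, 49.9 and 59.1 CPM, against 13.4, 14.1, 10.3 and 9.36 CPM in Ptprc KO libraries. Of the 16 fits without 1 library, Il7 was called in 13, Chsy3 in 12, Grap2 in 5 and Rras2 in 3. Xlr4c was called in 7, Zfp979 in 5, Ube2e2 and Scly in 4 each, H2-Q6 and H2-Q7 in 2 each and Sox12 in 1.

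**Figure D3:**
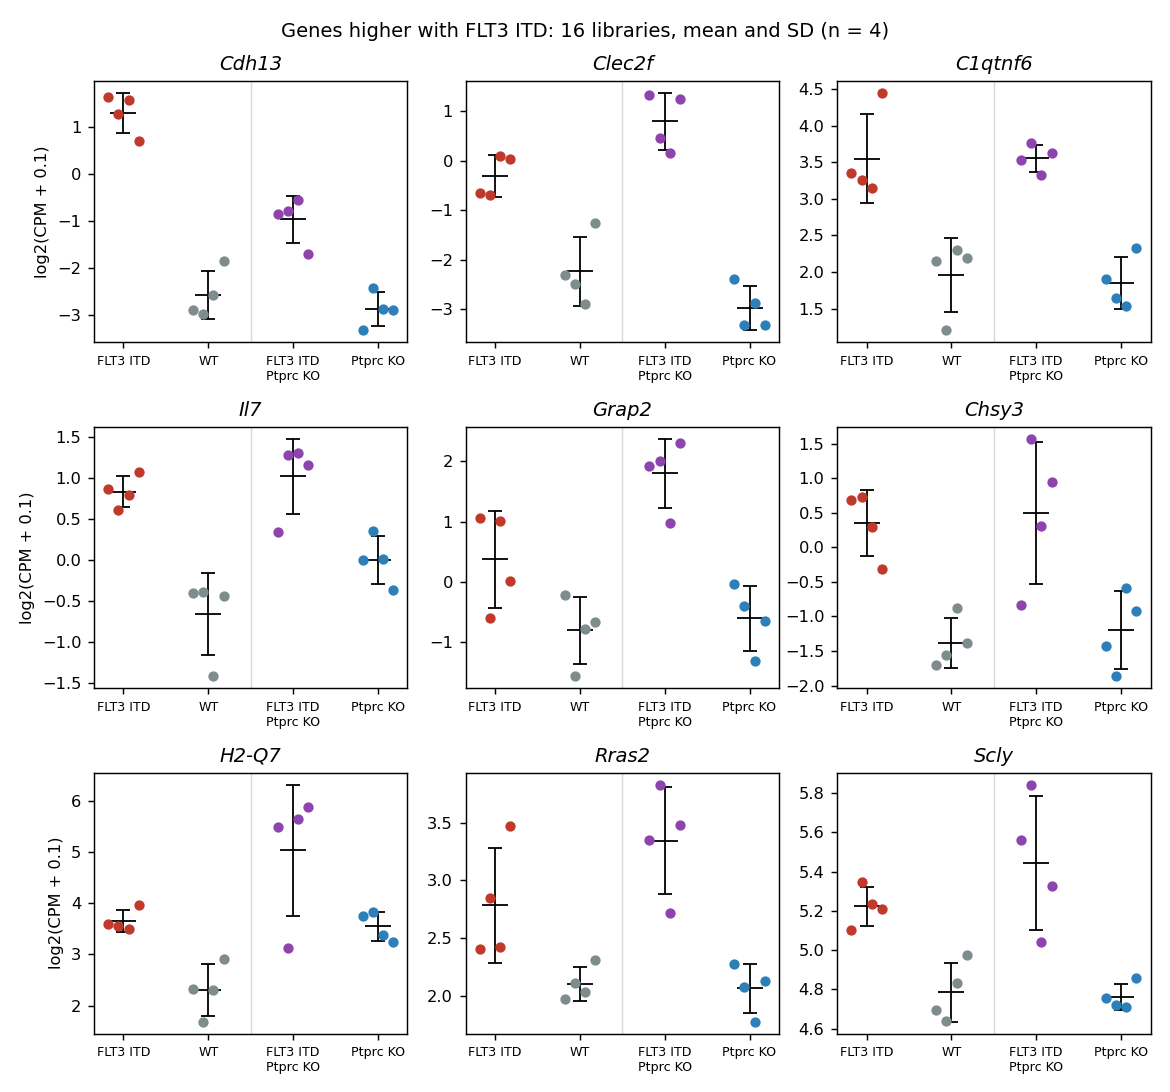
Level of 9 genes higher with FLT3 ITD, as log2(CPM + 0.1) per library (points), in FLT3 ITD, WT, double mutant and Ptprc KO libraries, with the mean and SD of each group (n = 4) in black. Cdh13 is at 1.54 to 3.01 CPM in FLT3 ITD and 0.0265 to 0.178 CPM in WT libraries, and at 0.210 to 0.586 CPM in double mutant and 0 to 0.0876 CPM in Ptprc KO libraries.

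Whether the size of a change differed between backgrounds was tested with the interaction. An interaction p under 0.05 was found for 3 of the 39, against 2120 of all genes (17.5%), and none of the 3 passed after adjustment. The additive test on these same libraries favours genes with like effects in both backgrounds, so the low share cannot show agreement between them. The interaction called 1 gene of all those tested (0.00827%), Rbm44, which is not among the 39. Clec2f rose by 5.46 (SE 0.76) in the double mutant against Ptprc KO and by 2.44 (SE 0.64) in FLT3 ITD against WT (interaction adjusted p = 0.255, edgeR). Dysf fell by 7.03 (SE 1.02) in the double mutant against Ptprc KO and by 3.44 (SE 0.80) in FLT3 ITD against WT (interaction adjusted p = 0.264, edgeR). Lipo3 fell by 1.15 (SE 0.19) in the double mutant against Ptprc KO and by 0.49 (SE 0.19) in FLT3 ITD against WT (interaction adjusted p = 0.268, edgeR).

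Over all tested genes, the 39 called ones included, the within-background fold changes differed in sign more often than not. These contrasts, FLT3 ITD against WT and the double mutant against Ptprc KO, share no library. The 25 lower and 14 higher called genes are among the genes shared at an unadjusted p under 0.05. The shares at that threshold are therefore not independent of the calls. The sign was equal for 42.2% of 12093 genes, with a Spearman rho of -0.178 and a Pearson r of 0.128 across genes, which are not independent replicates. At an unadjusted p under 0.001, 9 genes were lower in both backgrounds, 37.5% of the 24 in FLT3 ITD against WT and 17% of the 53 in the double mutant against Ptprc KO, and the shares of all genes lower at that threshold were 0.198% in FLT3 ITD against WT and 0.438% in the double mutant against Ptprc KO. For higher genes the overlap was 2, or 15.4% of the 13 in FLT3 ITD against WT and 4.35% of the 46 in the double mutant against Ptprc KO, with 0.108% and 0.38% of all genes higher in those contrasts. At p under 0.05, 59 genes were lower in both. They were 15.1% of the genes lower in FLT3 ITD against WT, where 9.07% of all genes were lower in the double mutant against Ptprc KO. They were 5.38% of the genes lower in the double mutant against Ptprc KO, where 3.23% of all genes were lower in FLT3 ITD against WT. Another 52 were lower in FLT3 ITD against WT and higher in the double mutant against Ptprc KO. For higher genes at that threshold the shares were below those of all genes. The 40 higher in both were 6.33% of the genes higher in FLT3 ITD against WT, with 8.75% of all genes higher in the double mutant against Ptprc KO. They were 3.78% of the genes higher in the double mutant against Ptprc KO, with 5.23% of all genes higher in FLT3 ITD against WT, and 60 had opposite signs.

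Some lists had medians of opposite sign in the backgrounds, over which the additive value averages. The 16 resorption genes had a median log2 fold change of -0.42, made of -1.02 in the double mutant against Ptprc KO and 0.32 in FLT3 ITD against WT, and none of the 16 passed the test. None of the 24 oxidative phosphorylation genes had the same sign in both (medians -0.66 in the double mutant against Ptprc KO and 0.49 in FLT3 ITD against WT). For 24 cell cycle genes the medians were 0.88 in the double mutant against Ptprc KO and -0.35 in FLT3 ITD against WT, and 1 gene had the same sign. The mean log2 level of the resorption genes was 8.59, 8.94 and 8.65 in double mutant replicates 1, 2 and 4, against 10.26 in replicate 3. FLT3 ITD replicate 4 was low too, at 9.29 against 10.60 to 10.71 in the other FLT3 ITD libraries, and the part of these libraries in the result was not tested.

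Antigen presentation genes pointed one way without a call. All 12 genes of a list for class II MHC presentation, which also holds Ciita, Cd40, Cd80 and Cd86, were positive, with a median of 0.92. Of these, 8 had an unadjusted p under 0.05 (4.24% of all genes were higher at that threshold), but none passed after adjustment. Cd74, the invariant chain, differed by 1.79 on the log2 scale (SE 0.77, adjusted p = 0.694). The summed level of the list overlapped, at 389 to 5429 CPM in FLT3 ITD and 158 to 1201 CPM in WT libraries, and at 890 to 6758 CPM in double mutant and 148 to 2209 CPM in Ptprc KO libraries. Single libraries gave the highest sums, FLT3 ITD replicate 4 at 5429 CPM with the others at 389 to 621 CPM, and double mutant replicate 2 at 6758 CPM with the others at 890 to 1004 CPM. The other groups also had a library apart, WT replicate 3 at 1201 CPM and Ptprc KO replicate 4 at 2209 CPM. Among 9 dendritic cell genes tested, 5 had an unadjusted p under 0.05 and were higher, and none was called. No member of the STAT5 response, ERK feedback or progenitor lists was called. The STAT5 response list had a median of 0.55 with 13 of 15 genes positive, and its lowest member was Socs2, a STAT5 target, at -1.35 (SE 0.43). The ERK feedback list had a median of 0.76 with 10 of 15 positive, and Dusp6, an ERK phosphatase, was at 0.76 (SE 0.21, adjusted p = 0.235). The progenitor list had a median of -0.14 with 7 of 11 negative, and its highest member was Cd34, a progenitor antigen, at 1.52 (SE 0.36, adjusted p = 0.131).

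**Figure D4:**
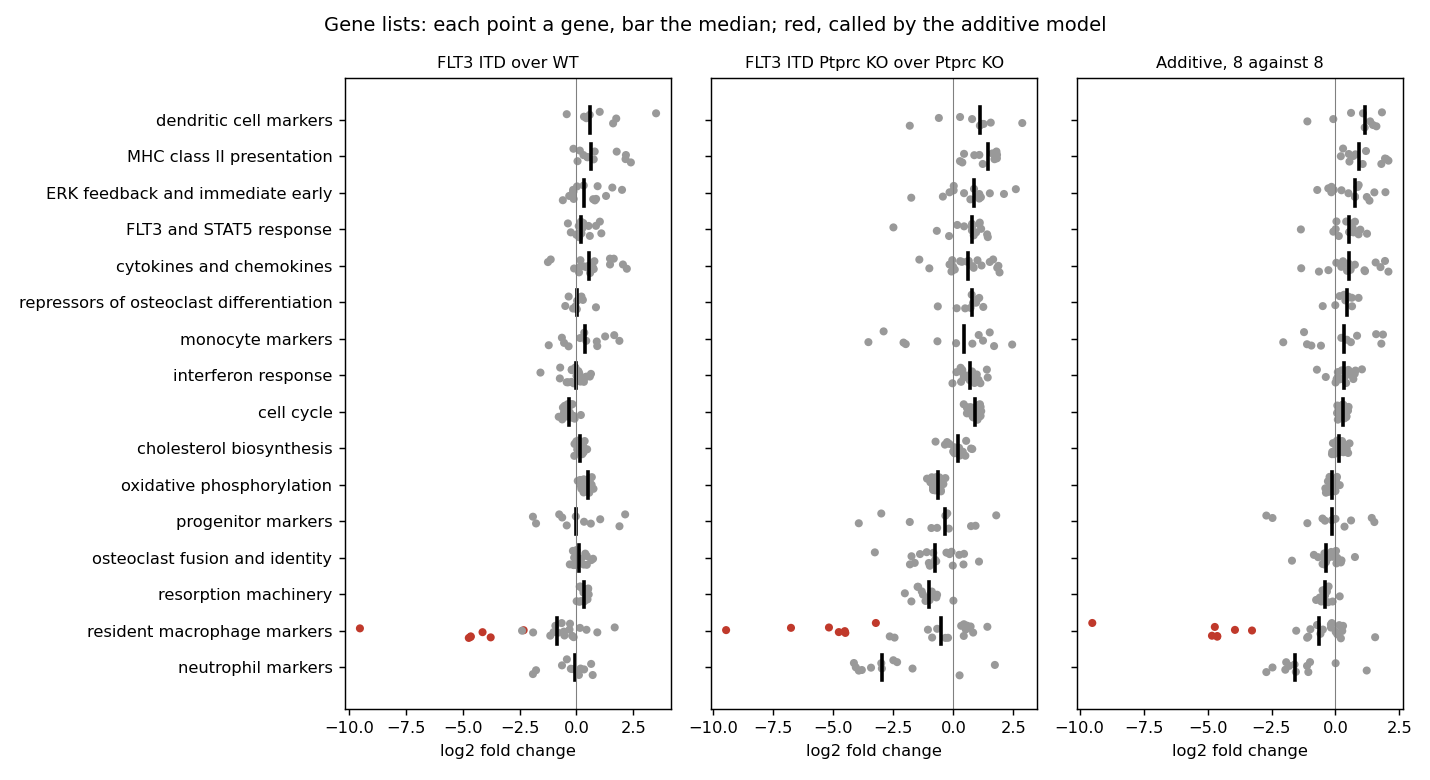
Log2 fold change of each tested member (points) of the lists with at least 9 tested genes, in FLT3 ITD over WT, in the double mutant over Ptprc KO and in the additive model, with list medians as bars and called genes in red. In the additive panel the resident macrophage list has its called members far below 0 and its median at -0.65. All 12 genes of the class II MHC presentation list lie above 0.

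**Figure D5:**
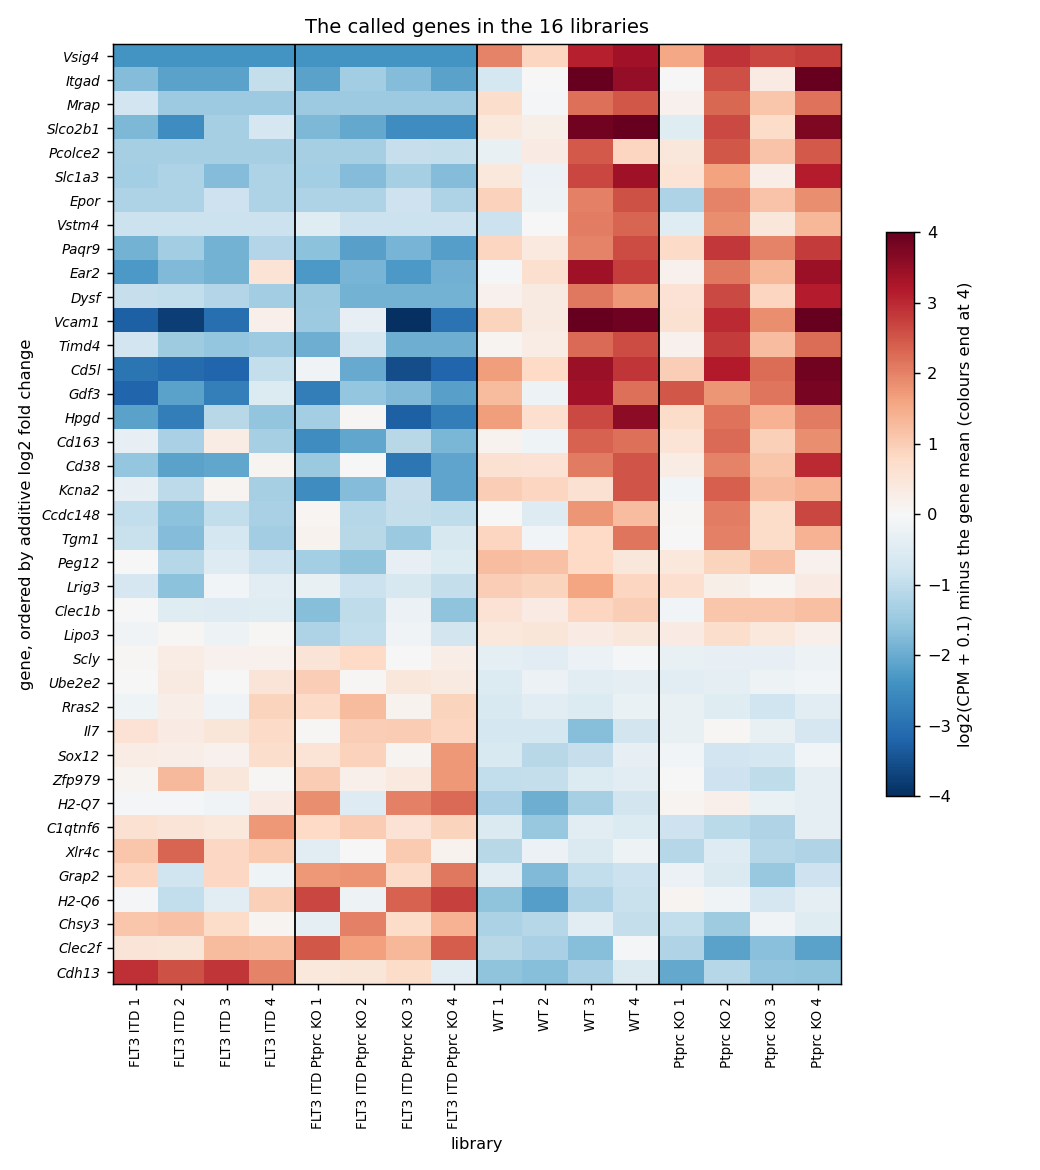
Level of the 39 called genes (rows) in the 16 libraries (columns), as log2(CPM + 0.1) minus the mean of the gene, with colours that end at 4 either way. For 17 of the 25 lower genes and 8 of the 14 higher genes, the libraries with FLT3 ITD do not overlap those without it.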

How the data were processed

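RNA from 16 cultures was made into poly(A)-selected, directional libraries with unique molecular identifiers, per the labels' protocols. The authors deposited raw counts per gene, whole numbers without normalization, and a second deposited table of TPM. Per the submitters' processing notes, the build was GRCm38.p6 and the tools included featureCounts 2.0.3, UMI-tools 1.1.1, STAR 2.7.6a and cutadapt 4.2. Their settings and the use of strand in counting are not given in the sources used here, and reads of overlapping and antisense genes cannot be told apart. TPM recomputed from the counts and gene lengths was within 1% of the deposited TPM for 34.1% of values, so the TPM served only as an alternative.

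The test on counts used edgeR 4.0.16 (R 4.3.3): filterByExpr on the 4 groups, TMM factors, a robust quasi-likelihood fit with FLT3 ITD and Ptprc status as additive terms (13 residual degrees of freedom), two-sided, with Benjamini-Hochberg adjustment over 12093 genes and a threshold of 0.05. Adjusted p-values in the text come from this test. A fit of the 4 group means (12 residual degrees of freedom) gave the contrasts within each background and the interaction. A gene moved in both backgrounds if it passed the additive test and had the same sign and an unadjusted p under 0.05 in each. A standard error is the fold change divided by the root of its F statistic. Total counts were 24211724 to 35773313 per library, and the dispersion common to all genes, 0.137, is a coefficient of variation of 0.37. For genes with 0 counts over a set of libraries, folds were taken against 3 counts over the set.

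Named genes were Ptprc and Flt3, the 12 largest changes at most in each direction at a mean of at least 0.5 CPM, the 10 lowest p-values, up to 5 genes each way with the smallest interaction p, and list members. The largest changes omit predicted models and genes on the Y chromosome. Called genes outside that rule (such as Peg12 and Vstm4) were named after their values were seen. The members, the gene lists and the comparisons were chosen with earlier results of these data known. Gene positions came from GENCODE M21, in which 21894 gene IDs were found.

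Tried as alternatives were DESeq2 1.42.0, a replicate block, RLE factors, a filter at a mean of 50 counts, no filter, voom with quality weights, limma 3.58.1 on log2(TPM + 1) at a mean TPM of at least 1, the average of the effects in each background, no Ptprc term, 1 surrogate variable (sva 3.50.0), the close FLT3 ITD libraries summed, and each library left out in turn. The scripts were tested on simulated counts.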

Additional observations from a re-analysis of the deposited data

Results flagged for a closer look

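In groups of 4 libraries, a value was singled out where it stood apart from the other 3 by Dixon's criterion, which chance meets in about 1 in 20 groups. Of 164 groups, 16 held such a value, and groups with 3 counts or fewer over their 4 libraries were among the 164 but were not examined. FLT3 ITD replicate 4 was the high library for 5 genes, with C1qtnf6 at 21.8 CPM (the others at 8.79 to 10.1), Vcam1 at 10.9 CPM (0.606 to 1.09), Cd5l at 10.5 CPM (2.19 to 2.60), Cd38 at 1.21 CPM (0.173 to 0.313) and Ear2 at 0.624 CPM (0 to 0.0433). FLT3 ITD replicate 1 was high for Clec1b (1.00 CPM) and Timd4 (0.125 CPM), and FLT3 ITD replicate 2 for Xlr4c (9.36 CPM). Among double mutant libraries, Timd4 was at 0.138 CPM in replicate 2 and Ccdc148 at 0.368 CPM in replicate 1. In WT libraries, Ptprc was low in replicate 2 (412 CPM), Il7 was low in replicate 3 (0.275 CPM), Lrig3 was high in replicate 3 (0.824 CPM) and Kcna2 was high in replicate 4 (3.09 CPM). In Ptprc KO libraries, Xlr4c was high in replicate 2 (1.23 CPM) and Clec1b was low in replicate 1 (0.932 CPM).

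The effect of FLT3 ITD on Rbm44, which encodes an RNA-binding protein, differed between backgrounds by the interaction test of all 16 libraries. Its log2 fold change was 5.75 in the double mutant against Ptprc KO and -0.80 in FLT3 ITD against WT, an interaction of 6.54 (SE 0.88, adjusted p = 0.0309, edgeR quasi-likelihood test). It was the 1 gene of 12093 called by the interaction (0.00827%). With 1 library left out at a time, the call held only without Ptprc KO replicate 2, FLT3 ITD replicate 3 or 4, or double mutant replicate 3. It was lost without any other single library, with the replicate block and with limma on TPM. The call held with RLE factors, and with DESeq2 and voom with quality weights, where the interaction called 165 and 7283 genes.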

How the results depend on the processing

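The 39 genes called by the additive model also met the rule for both backgrounds, and the number stayed within 1.5 times with RLE factors (40), no filter (43), the average of the effects in each background (50) and no Ptprc term (32). The number called by the additive model, and the number that met the rule for both backgrounds, were 5 and 5 at a mean count of at least 50, 21 and 21 with the replicate block, 148 and 106 with DESeq2, 218 and 98 with voom and quality weights, 18 and 18 with limma on TPM, and 128 and 122 with 1 surrogate variable. With FLT3 ITD replicates 1 and 3 summed they were 23 and 23, and with replicate 2 also left out 12 and 12. Leaving out FLT3 ITD replicate 4 and double mutant replicate 3, chosen after seeing the data, gave 22 and 21. Leaving out 1 library at a time gave 14 to 36 for both numbers. The interaction, with 1 gene, had 165 with DESeq2, 7283 with voom and quality weights, 2459 without those 2 libraries, and 0 to 56 with 1 library left out. It had 0 in edgeR at a mean count of at least 50, with the replicate block and with replicates 1 and 3 summed, with or without replicate 2, and 0 with limma on TPM. At an unadjusted p under 0.05 the interaction had 1930 genes at a mean count of at least 50, 2260 with the block, 2056 with the libraries summed, 968 without replicate 2 as well, and 2342 with limma on TPM. The cause of these differences was not tested.

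Replicate numbers gave no clear pairing of the samples: 12 of 24 same-numbered pairs correlated above 0.1 (range -0.673 to 0.869), and in 8 of 24 a library correlated best with its own number. Whether same-numbered libraries shared a batch was not tested. Of 1089 values of the called genes under the alternatives, 715 stayed past the threshold, 374 kept the direction but not the threshold, and 0 reversed. Counts limit the low genes: 23 of the 39 had a mean under 50.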

Other observations

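None of the called genes lay near Flt3 itself. Of 207 tested genes within 20 Mb of it on chromosome 5, 0 were called by edgeR's quasi-likelihood test and 17 (8.21%) had an unadjusted p under 0.05, against 7.05% of all genes. Chromosome 6 held 5 of the 39 called genes (Gdf3, Cd163, Clec2f, Clec1b and Dysf), 0.864% of its 579 tested genes, against 0.323% of all genes. Chromosome 14 held 4 (0.978% of 409) and chromosome 3 also 4 (0.709% of 564).

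Cd4, which mouse T cells express and which was chosen here after its values were seen, was at 0.130 to 9.12 CPM with FLT3 ITD (median 0.908) and 1.89 to 46.4 CPM without it (median 8.16). It did not pass the test (log2 fold change -2.86, SE 0.93, adjusted p = 0.438), and Cd3e, Cd3d, Cd3g and Cd8a did not pass the filter on low counts.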
